A study of Mus musculus with 24 samples.

Results

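The collagen genes were all rows of the count table whose mouse symbol has the form Col, a type number, a and a chain number. There were 44 of them among 39017 genes, and all 44 reached the minimum of 10 counts summed over the 24 libraries, with sums between 42 counts for Col22a1 and 1519465 counts for Col3a1. They lay on 15 chromosomes and comprised 11 fibrillar, 9 fibril-associated, 6 type IV, 6 type VI, 4 transmembrane, 3 short-chain network and 2 multiplexin genes, the anchoring fibril gene Col7a1 and the 2 others Col26a1 and Col28a1.

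A collagen molecule is a triple helix of alpha chains, and each gene encodes 1 chain. Fibrillar collagens such as types I, III and V build the fibrils that give tissue its tensile strength, type IV forms the sheet of the basement membrane, and type VI forms beaded microfibrils around cells. In fat every adipocyte sits in a basement membrane of type IV collagen with type VI around it, and fibroblasts and adipocyte progenitors make most of the fibrillar chains. Expanding fat and tumor stroma are both known for remodeling of this matrix.

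The RNA came from C57BL/6 mice, from the subcutaneous adipose tissue around mammary gland number 4, in 6 groups of 4 libraries. HFD peritumoral fat came from the tumor-bearing side of HFD mice, HFD contralateral fat from the other side, and HFD no tumor fat from mice of that diet without a tumor. Chow peritumoral, Chow contralateral and Chow no tumor fat were the same 3 positions in mice on Chow. The sample titles mark every peritumoral library L and every contralateral and no tumor library R. A difference between peritumoral and contralateral fat therefore cannot be told apart from a difference between the L and R sides of the body. The study's design text describes lean and obese mice and fat near and far from the breast tumor. The sources used here do not give a genotype beyond the strain, the age, the sex, the tumor cells, the length of the diet or the number of animals. The p-values therefore reflect library-to-library spread, part of which may be technical.

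Totals ran between 9130125 and 18204747 counts per library. The mitochondrial ribosomal RNAs mt-Rnr1 and mt-Rnr2 took 20.54% to 22.01% of counts in HFD no tumor fat, against 29.65% to 34.77% in Chow no tumor fat, and 22.82% to 35.8% in the other groups, and their part in the results was not tested. Levels are CPM, counts brought to a common library size with TMM factors over the 24 libraries, and levels of different genes are compared per kilobase of exon. Adipocyte markers were present in every library, with summed levels of 8 markers between 7035 and 17369 CPM, and no marker at 0. The skeletal muscle markers Acta1, Ckm, Ttn, Myh1, Myh2, Myh4, Mylpf, Tnnt3, Tnnc2 and Actn3 stood apart in 5 Chow libraries. Their sum was 4901, 3432 and 2758 CPM in Chow contralateral libraries 1, 2 and 4, 2657 CPM in Chow peritumoral library 2 and 1039 CPM in Chow no tumor library 3. It was at most 422 CPM in the other Chow libraries and at most 267 CPM in the HFD libraries. In most comparisons that use these 5 libraries, counts of called collagens and of collagen processing and receptor genes are given with and without them. Counts of cell type markers and the split of collagens at 100 CPM are given only with them. Leaving them out keeps 1 library, replicate 3, in Chow contralateral fat, which is then assumed to vary like the other groups. The summed level of 8 mammary epithelium markers was lower on HFD, at 93.13 to 313, 215 to 277 and 366 to 427 CPM in HFD peritumoral, contralateral and no tumor fat, against 458 to 562, 486 to 563 and 472 to 748 CPM in the matching Chow groups. In bulk tissue, fewer cells of a type and less RNA per cell cannot be told apart.

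Collagen transcripts made up 0.955% to 1.64% of all counts. Their summed level was 15326 ± 1349 CPM in HFD peritumoral, 13452 ± 1890.5 CPM in HFD contralateral and 13841 ± 318 CPM in HFD no tumor fat (SD, n = 4 each). It was 11435 ± 1119, 10214 ± 1093 and 12538 ± 1144 CPM in the matching Chow groups (SD, n = 4 each). All 4 libraries of HFD peritumoral and of HFD contralateral fat lay above all 4 of the matching Chow group, whereas in no tumor fat the HFD libraries, at 13426 to 14191 CPM, overlapped the Chow libraries, at 10988 to 13644 CPM. As a plain percent of counts the order of positions was another, with 1.38% to 1.47% on HFD and 0.955% to 1.26% on Chow in no tumor fat, 1.13% to 1.46% and 0.987% to 1.13% in contralateral fat, and 1.41% to 1.64% and 1.05% to 1.49% in peritumoral fat, so which position overlapped depends on the scaling. These sums were not tested.

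**Figure D1:**
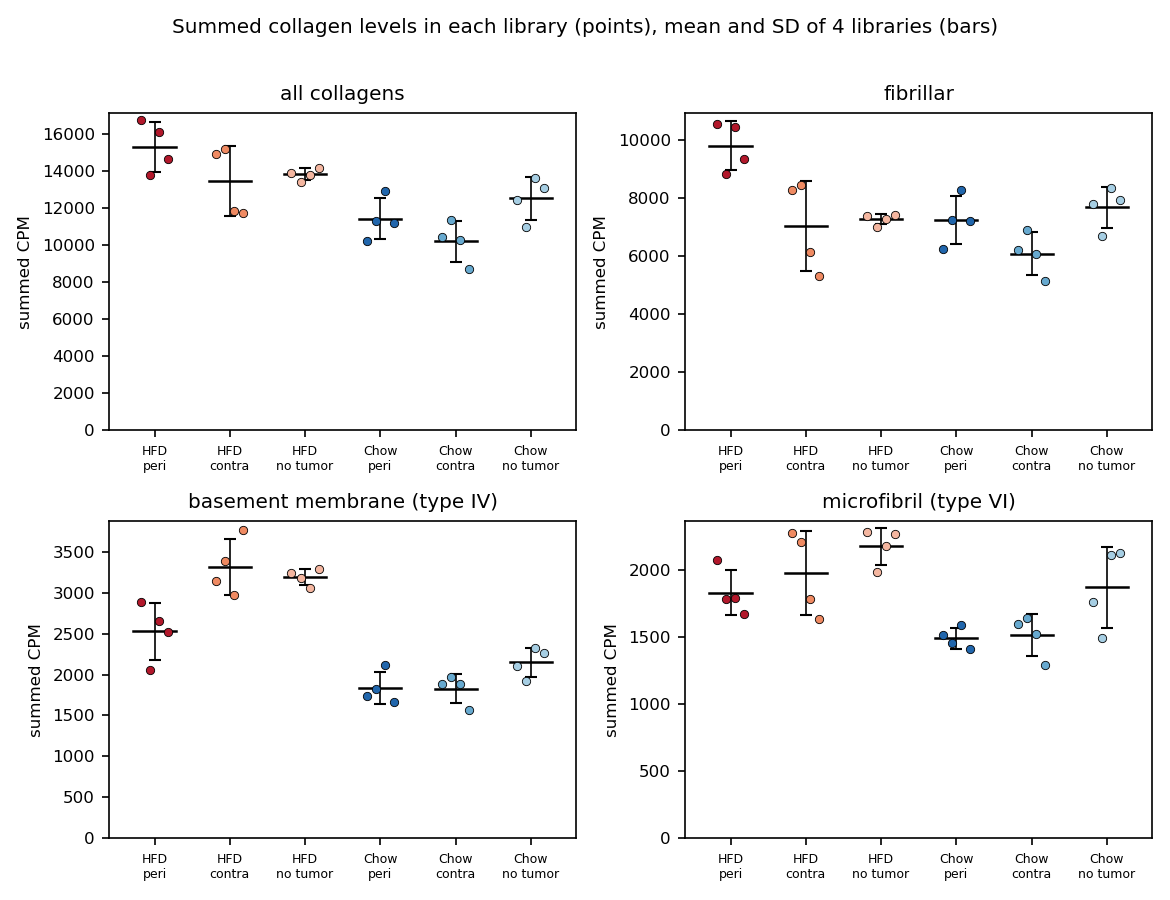
Summed level in CPM of all collagens and of the fibrillar, type IV and type VI genes in each of 24 libraries, by group; bars are means with SD of 4 libraries. The fibrillar sum was highest in HFD peritumoral fat (8825 to 10558 CPM), and the type IV sum in the 12 HFD libraries was 2057 to 3765 CPM, against 1563 to 2319.6 CPM in the 12 Chow libraries.

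Few genes carried this total. The 10 genes with most counts held 89.1% of collagen counts, and Col3a1, the single chain of type III collagen, alone held 31.9%. Per kilobase of exon Col3a1 was first at 489 CPM, followed by Col4a1 at 219, Col1a1 at 159, Col4a2 at 141, Col6a1 at 113 and Col1a2 at 96.2 CPM per kilobase. The exon length used for Col1a2 was 12136 bases, against 6563 for Col1a1, so its place depends on the annotation of the matrix. Averaged over all libraries, 14 genes reached 100 CPM, 30 did not, and 7 were under 1 CPM.

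Diet was compared at each position, between groups that share no library. A gene is called where edgeR's adjusted p, taken over all genes tested, was under 0.05. In no tumor fat 11 of 39 tested collagen genes were called, 8 higher and 3 lower on HFD, beside 24.9% of the 15827 genes tested (13.6% higher, 11.3% lower), so their share of 28.2% was near that of all genes. In contralateral fat 28 of 39 were called, 9 higher and 19 lower, beside 49.3% of all genes (24.5% higher, 24.8% lower). In peritumoral fat 23 of 40 were called, 9 higher and 14 lower, beside 33.6% of all genes (16.4% higher, 17.2% lower). The median log2 fold change of the tested collagens was 0.08 in no tumor, -0.61 in contralateral and 0 in peritumoral fat, where the medians of all genes were -0.02, -0.01 and 0.02.

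At all 3 positions the collagens called lower on HFD were under 100 CPM. Of the 14 genes at 100 CPM or more, 6, 8 and 6 were higher on HFD in no tumor, contralateral and peritumoral fat and none was lower. Of those under 100 CPM, 2 were higher and 3 lower of 25 in no tumor fat, 1 higher and 19 lower of 25 in contralateral fat, and 3 higher and 14 lower of 26 in peritumoral fat. Over all genes tested at 100 CPM or more, 28.9%, 52.4% and 24.9% were higher on HFD in no tumor, contralateral and peritumoral fat and 13.5%, 16.4% and 14.6% lower, and under 100 CPM 12.2%, 21.9% and 15.6% were higher and 11.1%, 25.6% and 17.5% lower. Col4a2, Col6a1, Col6a2, Col12a1 and Col18a1 were higher on HFD at all 3 positions, and Col4a3 and Col27a1 were lower at all 3. No collagen was called in opposite directions at different positions. Without the 5 libraries high in muscle markers the calls were 8 higher and 2 lower in no tumor fat, 4 higher and 6 lower in contralateral fat, and 3 higher and 11 lower in peritumoral fat, beside 19.6%, 16.8% and 23.4% of all genes tested in those fits. The peritumoral calls were also 3 and 11 without Chow peritumoral library 1, where no muscle markers were high, beside 19.2% of all genes.

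**Figure D2:**
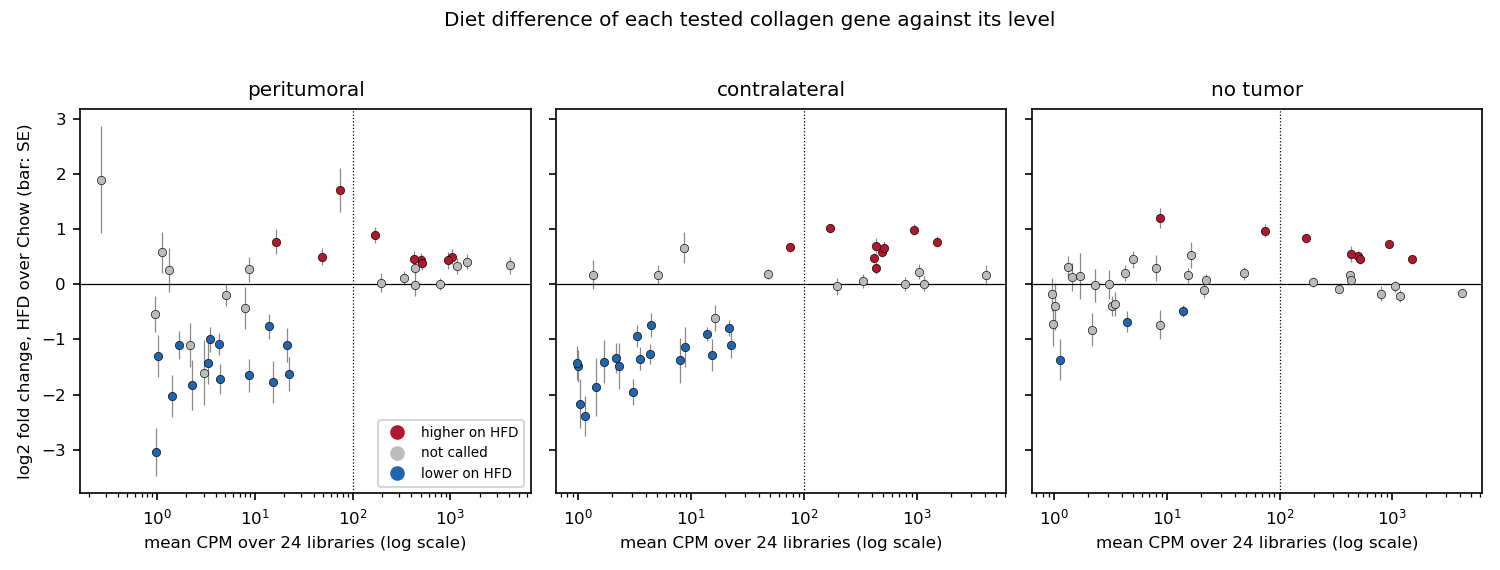
Log2 fold change of HFD over Chow for each tested collagen gene (bars: SE) against its mean CPM over 24 libraries on a log axis, for peritumoral, contralateral and no tumor fat; red is higher, blue lower, grey not called. The genes lower on HFD all lie left of the dotted line at 100 CPM.

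**Figure D3:**
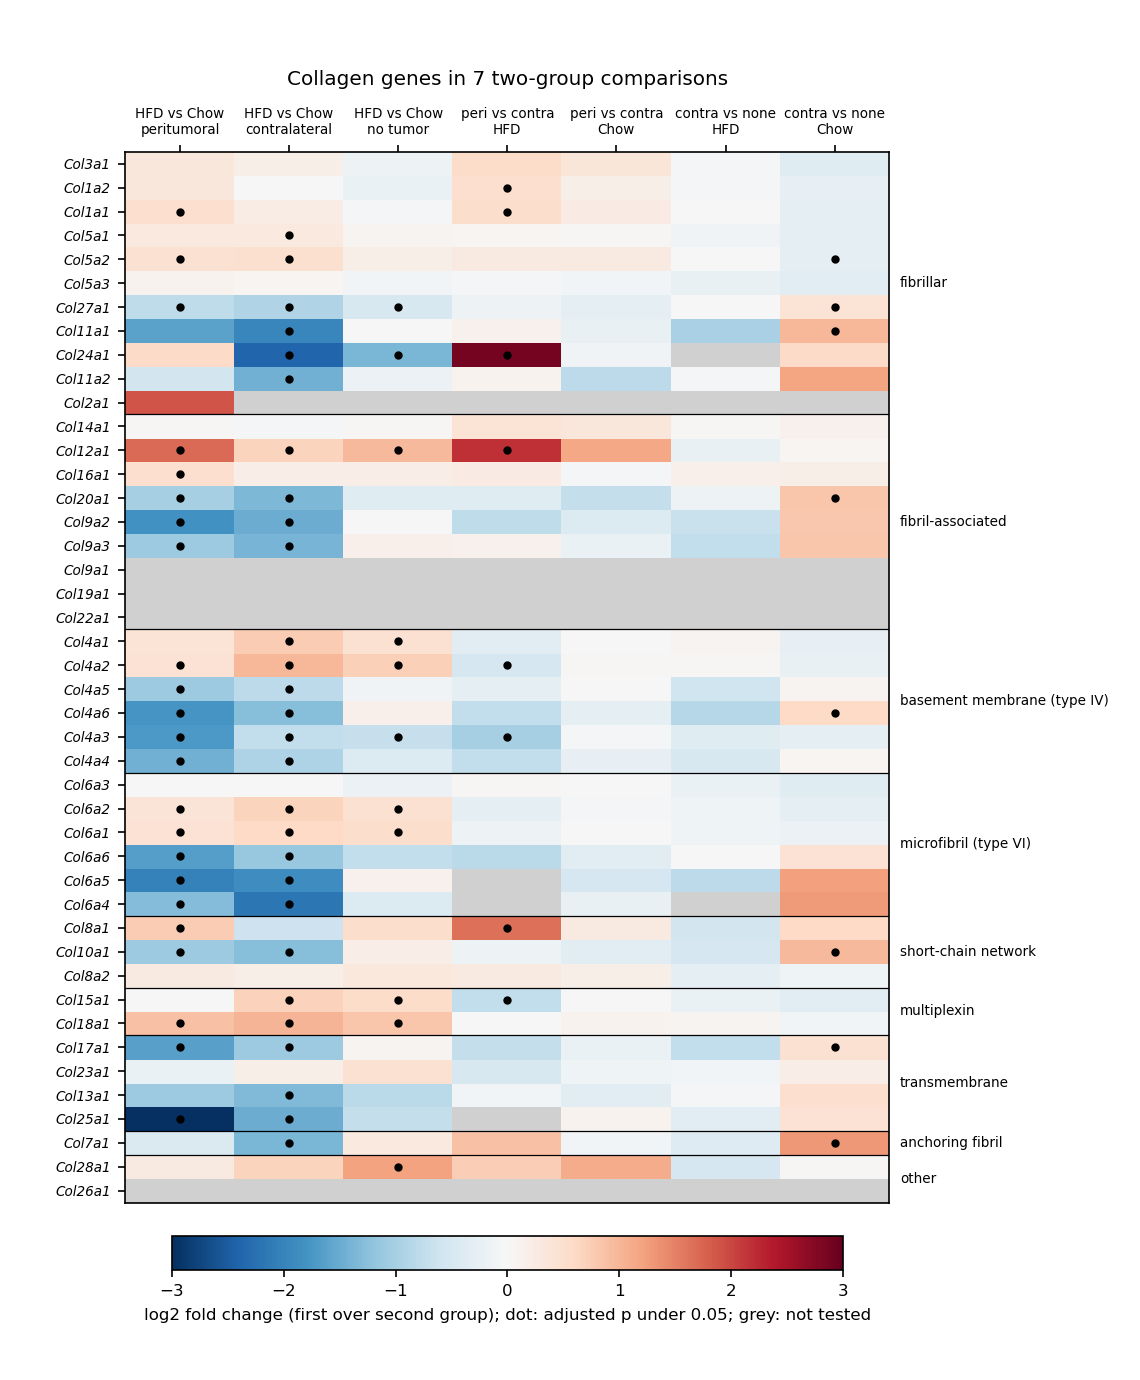
Log2 fold changes of the 44 collagen genes (rows, by class) in 7 comparisons of 2 groups (columns), first-named group over second; dots mark adjusted p under 0.05 and grey marks genes not tested. Col4a1, Col4a2, Col6a1, Col6a2 and Col18a1 are red in the 3 diet columns, the other type IV and type VI genes mostly blue, and the Chow peritumoral against contralateral column holds no dot.

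Within the type IV genes the chains split by pair. Col4a1 and Col4a2, whose chains form the common basement membrane network around adipocytes and vessels, were higher on HFD, while Col4a3 to Col4a6, the chains of more specialised basement membranes, were lower or not called. The 6 genes lie in 3 head-to-head pairs. Col4a1 and Col4a2 overlap by 22 exon bases on chromosome 8, Col4a4 and Col4a3 are 71 bases apart on chromosome 1, and Col4a6 and Col4a5 are 1308 bases apart on the X chromosome. The promoter windows of the first and last pair, where the RefSeq table on GRCm38.p6 matched both genes, are printed from 250 bases before to 50 after each start site, since these pairs were called in opposite directions in contralateral fat. Capitals mark CCAAT and GGGCGG on either strand (ATTGG and CCGCCC are their reverse complements), and the sequences of Col4a1 and Col4a6 are given on their own minus strand.
Col4a1, chr8:11312777-11313076, minus strand: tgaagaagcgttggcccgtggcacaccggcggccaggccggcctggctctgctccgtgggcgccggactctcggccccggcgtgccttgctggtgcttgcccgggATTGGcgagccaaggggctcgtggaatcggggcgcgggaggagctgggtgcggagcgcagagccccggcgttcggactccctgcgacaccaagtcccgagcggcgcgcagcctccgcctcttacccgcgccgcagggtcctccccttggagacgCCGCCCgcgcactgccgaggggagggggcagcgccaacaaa
Col4a2, chr8:11312555-11312854, plus strand: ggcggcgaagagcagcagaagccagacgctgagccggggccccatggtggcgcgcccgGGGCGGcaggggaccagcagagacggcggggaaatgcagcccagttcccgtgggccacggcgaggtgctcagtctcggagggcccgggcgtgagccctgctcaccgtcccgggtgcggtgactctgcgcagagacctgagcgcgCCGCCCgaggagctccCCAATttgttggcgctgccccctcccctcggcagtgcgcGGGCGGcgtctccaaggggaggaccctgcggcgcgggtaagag
Col4a5, chrX:141475169-141475468, plus strand: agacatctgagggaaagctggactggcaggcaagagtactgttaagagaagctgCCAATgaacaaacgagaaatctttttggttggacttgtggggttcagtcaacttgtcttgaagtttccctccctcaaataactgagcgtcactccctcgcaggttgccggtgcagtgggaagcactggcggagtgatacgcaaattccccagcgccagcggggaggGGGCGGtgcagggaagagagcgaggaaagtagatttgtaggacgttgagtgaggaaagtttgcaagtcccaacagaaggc
Col4a6, chrX:141474027-141474326, minus strand: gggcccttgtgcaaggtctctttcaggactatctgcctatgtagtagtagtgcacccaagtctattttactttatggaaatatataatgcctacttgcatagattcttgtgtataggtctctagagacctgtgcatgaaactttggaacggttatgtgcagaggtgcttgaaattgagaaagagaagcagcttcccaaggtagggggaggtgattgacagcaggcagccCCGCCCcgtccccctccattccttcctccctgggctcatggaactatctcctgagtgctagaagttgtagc
The windows of Col4a1 and Col4a2 share 78 bases, which include 1 GGGCGG, found at position 8 from the Col4a2 start and written CCGCCC at position 10 from the Col4a1 start. The start sites of Col4a6 and Col4a5 are 1343 bases apart and their windows share none. A CCAAT was found in 3 of these windows and not in that of Col4a6. Over the table, CCAAT was in 37.4% of 32851 promoters and 34.2% of the 38 windows of the 35 collagen genes matched, GGGCGG in 35.7% and 60.5%, and TATAAA, searched likewise and present in none of the 4 windows, in 13.6% and 13.2%. These matches are descriptions of letters in a window and were not tested.

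Col4a2 had 1296, 1273, 1241 and 1333 CPM in HFD no tumor fat, against 759.7, 680.5, 830.4 and 789 CPM in Chow no tumor fat. In contralateral fat it had 1244, 1351, 1182 and 1513 CPM on HFD, against 649, 709.9, 669.9 and 562 CPM on Chow. Every HFD library at these 2 positions was above every Chow library. The log2 fold changes were 0.72 (SE 0.07, adjusted p = 2.67e-05) and 0.99 (SE 0.10, adjusted p = 1.63e-05). In peritumoral fat the difference was smaller, with 1076, 737, 969 and 953 CPM on HFD, against 602, 621, 772 and 628 CPM on Chow. There HFD library 2 lay below Chow library 3, and the log2 fold change was 0.43 (SE 0.15, adjusted p = 0.0475). That call was lost when any of Chow libraries 1, 2 and 4 or HFD libraries 1, 3 and 4 was left out, and with the replicate number as a block.

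Col4a1 followed its partner at a smaller size. It averaged 1856 ± 65.3 CPM on HFD and 1334 ± 121 CPM on Chow in no tumor fat (SD, n = 4 each), and 1964 ± 202 and 1119.7 ± 118 CPM in contralateral fat. Its log2 fold changes were 0.45 (SE 0.08, adjusted p = 0.00138) and 0.77 (SE 0.10, adjusted p = 0.000112). In peritumoral fat all 4 HFD libraries, at 1304 to 1774 CPM, were above the Chow libraries, at 992 to 1290.3 CPM, and its log2 fold change of 0.41 (SE 0.14) had an adjusted p of 0.0512. It was called with DESeq2, RLE scaling, no low-count filter and all 24 libraries in the fit (adjusted p between 0.000756 and 0.0472). Without the libraries high in muscle markers the contralateral log2 fold changes were 0.74 for Col4a1 and 0.96 for Col4a2, both called. The ratio of Col4a1 to Col4a2 per exon base, in which scaling cancels, was 1.58 to 1.72 in HFD peritumoral, 1.43 to 1.46 in HFD contralateral and 1.38 to 1.42 in HFD no tumor fat. On Chow it was 1.53 to 1.78, 1.63 to 1.75 and 1.66 to 1.74. The ranges of HFD contralateral and HFD no tumor fat thus lay wholly below the other 4. Markers of other cells also differed by diet, in directions that varied by position. In no tumor fat 7 of 8 endothelial markers were higher on HFD, with sums of 849 to 872 CPM on HFD and 495 to 553 CPM on Chow, as were 5 of 8 smooth muscle and pericyte markers, at 979 to 1124 and 633 to 802 CPM. In contralateral fat 7 of 8 adipocyte markers were higher on HFD and 1 of 8 endothelial markers lower. Smooth muscle and pericyte markers had 1 higher and 4 lower of 8 there. In peritumoral fat 1 endothelial marker and 3 smooth muscle and pericyte markers were lower and none of either list was higher. Their part in the result was not tested.

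Of the other 4 type IV genes, only Col4a3 was called in no tumor fat, at 4.28 ± 0.592 CPM on HFD and 6.73 ± 1.83 CPM on Chow (SD, n = 4 each), with a log2 fold change of -0.68 (SE 0.19, adjusted p = 0.0237). In contralateral and in peritumoral fat all 4 were lower on HFD, with log2 fold changes between -1.28 and -0.74 and between -1.77 and -1.10. Col4a6 had 9.07, 4.99, 7.49 and 2.06 CPM in HFD peritumoral fat, against 26.1, 15.1, 17.5 and 18 CPM in Chow peritumoral fat. No HFD library reached the lowest Chow library. Its log2 fold change was -1.77 (SE 0.38, adjusted p = 0.00879). The no tumor call of Col4a3 was lost with all 24 libraries in the fit, without the libraries high in muscle markers, and when any of Chow libraries 3 and 4 or HFD libraries 2 and 4 was left out. Without the libraries high in muscle markers none of the 4 was called in contralateral fat, and Col4a3 and Col4a6 were in peritumoral fat.

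The type VI genes split in the same way by chain. Col6a1 and Col6a2, which with Col6a3 form the standard type VI molecule, were higher on HFD at all 3 positions. Col6a3 was not called at any, and Col6a4, Col6a5 and Col6a6, which encode chains that can take the place of the Col6a3 chain, were lower in contralateral and peritumoral fat. Col6a1 had 655, 603, 643 and 653 CPM in HFD no tumor fat, against 431, 362, 472 and 484 CPM in Chow no tumor fat. In contralateral fat it had 677, 636, 566 and 489.8 CPM on HFD, against 380.1, 415, 402 and 334 CPM on Chow. In peritumoral fat it had 627, 558, 510.1 and 457 CPM on HFD, against 370.5, 386, 408 and 351 CPM on Chow. The HFD libraries were above the Chow libraries without overlap at each position, with log2 fold changes of 0.52 (SE 0.09, adjusted p = 0.00128), 0.59 (SE 0.10, adjusted p = 0.000756) and 0.43 (SE 0.13, adjusted p = 0.0266).

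Col6a2 had log2 fold changes of 0.46, 0.66 and 0.39 (SE 0.09, 0.12 and 0.14) in no tumor, contralateral and peritumoral fat. Its adjusted p values were 0.00282, 0.00101 and 0.0499978, the last just inside the threshold and lost when any Chow library or HFD library 1 or 3 was left out, and with the replicate number as a block (adjusted p up to 0.114). Col6a3 averaged 847 ± 86.7 CPM on HFD and 936 ± 192 CPM on Chow in no tumor fat, 745 ± 123 and 721 ± 94.3 CPM in contralateral fat, and 765 ± 19.2 and 721 ± 42.7 CPM in peritumoral fat (SD, n = 4 each). Its log2 fold changes were -0.17 (SE 0.14), 0.01 (SE 0.13) and 0.01 (SE 0.11). The ratio of Col6a3 to Col6a1 per exon base separated the diets in all libraries, at 0.414 to 0.612 in the 12 HFD libraries and 0.639 to 0.843 in the 12 Chow libraries. The peritumoral call of Col6a1 was lost when any of Chow libraries 1, 2 and 4 was left out. Without the libraries high in muscle markers, neither Col6a1 nor Col6a2 was called in contralateral fat (adjusted p = 0.0719 and 0.0839, 1 Chow library left) and Col6a1 was not called in peritumoral fat (adjusted p = 0.0765). Col6a4, Col6a5 and Col6a6 were not called in contralateral fat there, and Col6a5 and Col6a6 were in peritumoral fat.

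**Figure D4:**
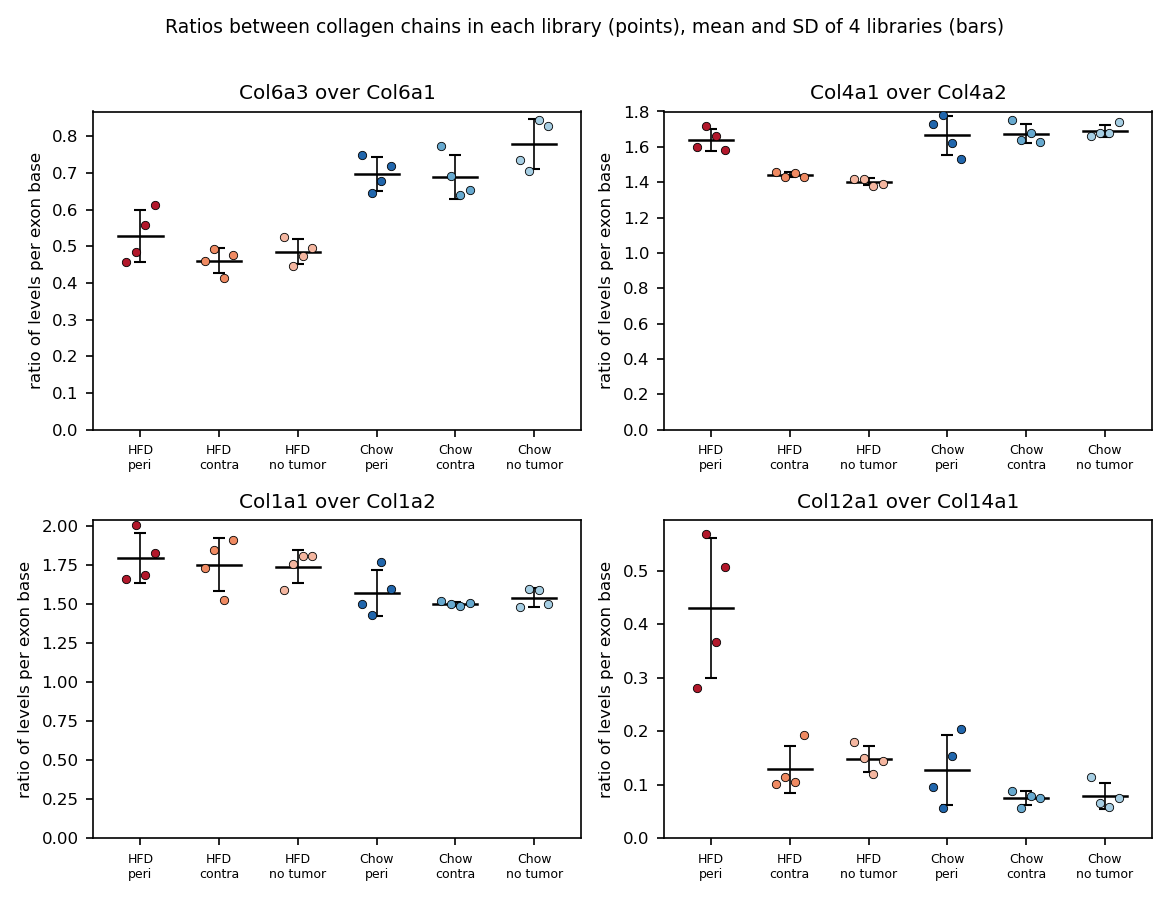
Ratio between 2 collagen chains per exon base in each library, by group; bars are means with SD of 4 libraries. Col6a3 over Col6a1 is at 0.414 to 0.612 in every HFD library and at 0.639 to 0.843 in every Chow library, and Col12a1 over Col14a1 is highest in HFD peritumoral fat (0.281 to 0.569).

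The multiplexins Col18a1 and Col15a1 encode basement membrane collagens whose C-terminal fragments include endostatin in the case of Col18a1. Col18a1 had 190.3, 230.4, 209 and 234 CPM in HFD no tumor fat, against 134, 122, 111 and 109.7 CPM in Chow no tumor fat. It had 234, 234, 203 and 245 CPM in HFD contralateral fat, against 114, 124, 109 and 96.4 CPM in Chow contralateral fat, and 212, 279, 224 and 202 CPM in HFD peritumoral fat, against 102, 108, 131 and 129 CPM in Chow peritumoral fat. The lowest of the 12 HFD libraries was above the highest of the 12 Chow libraries. The log2 fold changes were 0.83 (SE 0.08, adjusted p = 2.59e-05), 1.01 (SE 0.08, adjusted p = 3.94e-06) and 0.89 (SE 0.14, adjusted p = 0.00162), and each call held in every alternative fit. The log2 fold changes in every alternative lay between 0.78 and 1.09.

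Col15a1 was higher on HFD in no tumor fat (626 ± 100.4 CPM on HFD and 418 ± 67.3 CPM on Chow, SD, n = 4 each) and in contralateral fat (658, 594, 422 and 533 CPM on HFD, against 295, 371, 341 and 317 CPM on Chow). The log2 fold changes were 0.55 (SE 0.14, adjusted p = 0.0191) and 0.70 (SE 0.13, adjusted p = 0.00116). In peritumoral fat it had 502, 253, 271 and 317 CPM on HFD, against 260.3, 338, 362 and 326 CPM on Chow, with a log2 fold change of -0.01 (SE 0.21). Only HFD library 1 stood above the Chow libraries there. The no tumor call was lost without low-count filtering and when any of Chow library 4 or HFD libraries 2, 3 and 4 was left out, and the contralateral call without the libraries high in muscle markers.

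Among the fibrillar genes the abundant type I and III chains showed no called diet difference in no tumor or contralateral fat. Col3a1 averaged 3864 ± 42.8 CPM on HFD and 4191 ± 286 CPM on Chow in no tumor fat, and 3738 ± 1012 and 3224 ± 385 CPM in contralateral fat (SD, n = 4 each), with log2 fold changes of -0.15 (SE 0.07) and 0.17 (SE 0.18). In peritumoral fat Col1a1, which encodes the main chain of type I collagen, had 1439.9, 1385, 1484 and 1501 CPM on HFD, against 859.6, 948, 1185 and 886 CPM on Chow. All HFD libraries were higher, and the log2 fold change was 0.50 (SE 0.14, adjusted p = 0.0185). Col3a1 and Col1a2 were also higher in each HFD than each Chow library of this position, but their log2 fold changes of 0.34 (SE 0.16) and 0.33 (SE 0.14) were not called (adjusted p = 0.123 and 0.0817), although both were with DESeq2 and with all 24 libraries in the fit. The Col1a1 call was lost when Chow library 1 or 2 was left out, library 2 being the 1 peritumoral library high in muscle markers (adjusted p up to 0.0625). Macrophage markers were higher on HFD at this position for 4 of 8 genes and cell cycle markers for 6 of 8, with sums of 2031 to 2842 and 178 to 581 CPM on HFD, against 1000.3 to 1701 and 41.6 to 209 CPM on Chow, and their part in the result was not tested.

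Type V collagen regulates the width of type I fibrils. Col5a2 was higher on HFD in contralateral fat (453 ± 54.5 CPM on HFD and 315 ± 27.3 CPM on Chow, SD, n = 4 each) and in peritumoral fat (545 ± 72.7 and 374 ± 43.4 CPM), with log2 fold changes of 0.48 (SE 0.09, adjusted p = 0.00132) and 0.46 (SE 0.14, adjusted p = 0.028). Col5a1 was called in contralateral fat, with a log2 fold change of 0.30 (SE 0.11, adjusted p = 0.0361). Both contralateral calls were lost without the libraries high in muscle markers (adjusted p = 0.0693 for Col5a2). That of Col5a1 was also lost when any of Chow libraries 1, 3 and 4 or HFD libraries 1 and 2 was left out. The peritumoral call of Col5a2 was lost without Chow library 1 or 2 or HFD library 3 or 4 (adjusted p up to 0.0837).

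Some fibrillar genes of low level were lower on HFD. Col27a1, a fibrillar collagen known from cartilage, was lower on HFD at all 3 positions, with log2 fold changes of -0.49 (SE 0.11), -0.90 (SE 0.12) and -0.76 (SE 0.23) in no tumor, contralateral and peritumoral fat (adjusted p = 0.0058, 8.32e-05 and 0.0258). Col11a1, another chain of cartilage fibrils, had 1.76, 1.61, 1.54 and 0.748 CPM in HFD contralateral fat, against 6.5, 5.31, 5.04 and 4.53 CPM in Chow contralateral fat. The groups were well apart, with a log2 fold change of -1.95 (SE 0.24, adjusted p = 5.94e-05). Col24a1 was lower on HFD in no tumor and contralateral fat, with log2 fold changes of -1.37 (SE 0.37, adjusted p = 0.0183) and -2.38 (SE 0.36, adjusted p = 0.000247), at levels of at most 1.93 CPM in every library of these 4 groups. In peritumoral fat Col24a1 averaged 2.21 ± 0.987 CPM on HFD and 1.42 ± 0.523 CPM on Chow (SD, n = 4 each), with a log2 fold change of 0.58 (SE 0.37, adjusted p = 0.241). The no tumor calls were lost without Chow library 4 for Col24a1 and with all 24 libraries in the fit for Col27a1. The contralateral call of Col24a1 was lost without the libraries high in muscle markers (adjusted p = 0.082).

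**Figure D5:**
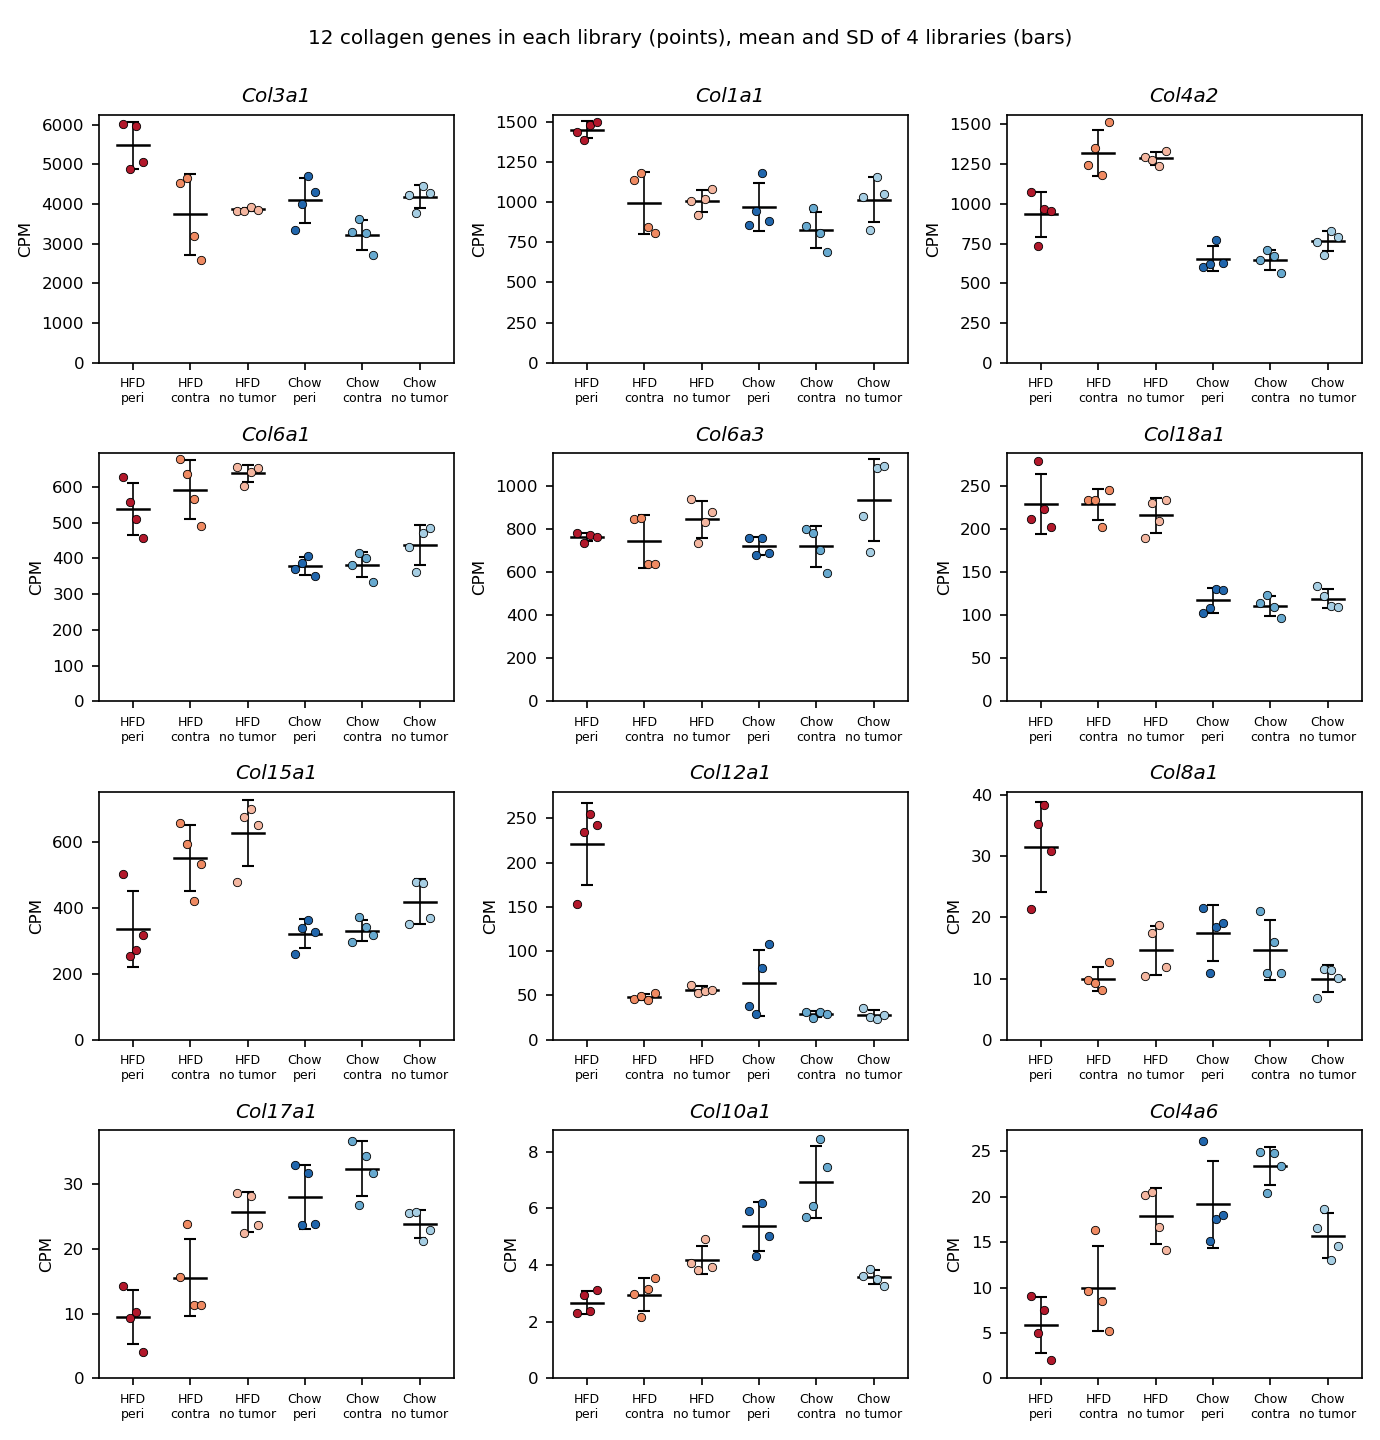
Level in CPM of 12 collagen genes in each of the 24 libraries, by group, each panel from 0; bars are means with SD of 4 libraries. Col18a1 is above 190 CPM in all HFD libraries and at most 134 CPM in all Chow libraries, Col12a1 and Col8a1 peak in HFD peritumoral fat, and Col17a1, Col10a1 and Col4a6 are low in HFD contralateral and peritumoral fat.

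The fibril-associated gene Col12a1 encodes a collagen that coats type I fibrils and is known from tendon and tumor stroma. On HFD it was higher at every position. It had 62.1, 53.0, 54.5 and 55.8 CPM in HFD no tumor fat, against 36.4, 25.4, 23.3 and 27.8 CPM in Chow no tumor fat, and 46.0, 49.2, 45.3 and 52.3 CPM in HFD contralateral fat, against 31.1, 25.0, 31.6 and 29.3 CPM in Chow contralateral fat. The diets did not overlap, and the log2 fold changes were 0.97 (SE 0.12, adjusted p = 0.000306) and 0.67 (SE 0.08, adjusted p = 5.35e-05). In peritumoral fat the log2 fold change was 1.71 (SE 0.40, adjusted p = 0.014). These 3 calls held in every alternative fit. Its relative Col14a1, also a fibril-coating collagen, was not called in any comparison, with diet log2 fold changes of 0.04, -0.04 and 0.03 (SE 0.09, 0.16 and 0.17). Col28a1, which encodes a collagen described at peripheral nerve in mice, was called by diet in no tumor fat and not at the other positions, with 11.3, 11.9, 9.46 and 11.9 CPM on HFD, against 6.15, 3.03, 5.34 and 4.42 CPM on Chow. The HFD libraries were all higher, and the log2 fold change was 1.2 (SE 0.18, adjusted p = 0.000477).

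Epithelial anchoring genes were lower on HFD in tumor-bearing mice, Col17a1 at both positions and Col7a1 in contralateral fat. Col17a1 encodes a transmembrane collagen of hemidesmosomes, and Col7a1 the anchoring fibril collagen below them. Col17a1 had 14.3, 9.33, 10.2 and 4.12 CPM in HFD peritumoral fat, against 33.0, 23.7, 31.7 and 23.8 CPM in Chow peritumoral fat. In contralateral fat it had 15.6, 23.9, 11.4 and 11.4 CPM on HFD, against 36.7, 26.8, 34.4 and 31.7 CPM on Chow. The HFD libraries were lower without overlap at both positions. The log2 fold changes were -1.63 (SE 0.31, adjusted p = 0.00519) and -1.10 (SE 0.24, adjusted p = 0.00558). In no tumor fat the log2 fold change was 0.08 (SE 0.10), with 25.8 ± 3.1 CPM on HFD and 23.8 ± 2.12 CPM on Chow (SD, n = 4 each). Col7a1 was lower in contralateral fat, at 4.78 ± 2.68 CPM on HFD and 12 ± 3.57 CPM on Chow (SD, n = 4 each), with a log2 fold change of -1.38 (SE 0.41, adjusted p = 0.0248). That call was lost without Chow library 1, without HFD library 3, with no low-count filter and without the libraries high in muscle markers. Without those libraries the contralateral call of Col17a1 was lost as well (adjusted p = 0.115).

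Mammary epithelium markers, with Krt5 and Krt14 on the list, were lower on HFD at the positions where Col17a1 was. Some were also lower in no tumor fat, where neither Col17a1 nor Col7a1 was called. Of 8 markers, 8 were lower on HFD in contralateral fat, 7 in peritumoral fat and 4 in no tumor fat, with median log2 fold changes of -1.08, -1.42 and -0.50. Schwann cell markers moved likewise in the tumor-bearing mice, with 6 of 8 lower on HFD at both positions and 1 higher in contralateral fat, their sum being 186 to 210.2 CPM in HFD contralateral and 163 to 233 CPM in HFD peritumoral fat, against 255 to 281 and 214 to 278 CPM on Chow. No marker of either list was at 0 in any library. Fibroblast and progenitor markers had 1 higher and 5 lower of 8 on HFD in no tumor fat, 1 lower in contralateral fat and none in peritumoral fat. Malat1, a nuclear RNA, was also lower on HFD, at 4483 to 7489 CPM in the 12 HFD libraries and 7733 to 11591 CPM in the 12 Chow libraries. The part of these differences in the collagen results was not tested.

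Several further genes of low level were lower on HFD. Col10a1, the short-chain collagen of growing cartilage, had 2.29, 2.93, 2.37 and 3.12 CPM in HFD peritumoral fat, against 5.92, 4.33, 6.19 and 5.02 CPM in Chow peritumoral fat, and 2.97, 2.16, 3.14 and 3.55 CPM in HFD contralateral fat, against 5.69, 6.08, 8.44 and 7.47 CPM in Chow contralateral fat. The diets did not overlap, with log2 fold changes of -1.08 (SE 0.20, adjusted p = 0.00337) and -1.27 (SE 0.18, adjusted p = 0.000202), which held in every alternative fit. Col25a1, a transmembrane collagen, had 0.448, 0.117, 0.122 and 0.125 CPM in HFD peritumoral fat, against 1.5, 1.68, 1.38 and 2.22 CPM in Chow peritumoral fat. All HFD libraries were lower, with a log2 fold change of -3.04 (SE 0.43, adjusted p = 0.00122), the largest in size among collagens in the diet comparisons. Its size is uncertain, since HFD peritumoral fat held 14 counts of Col25a1 in all. HFD libraries 2, 3 and 4 lay below the level of 3 counts, which was 0.176 to 0.187 CPM there. Col6a5 and Col6a6 had peritumoral log2 fold changes of -2.02 (SE 0.38) and -1.65 (SE 0.30), with adjusted p values of 0.00425 and 0.00352. Col20a1, a fibril-associated chain, had a contralateral log2 fold change of -1.35 (SE 0.21, adjusted p = 0.000362).

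Peritumoral fat was compared with contralateral fat within each diet. The labels do not say whether libraries of both sides came from the same mice, and they were tested as separate samples. All peritumoral libraries are marked L and all contralateral ones R, so tumor side and body side cannot be told apart here. On HFD 8 of 36 tested collagens were called, 5 higher and 3 lower in peritumoral fat, beside 29.5% of the 15627 genes tested (16.8% higher, 12.7% lower), so the collagens' share of 22.2% was below that of all genes. Col12a1 had 153, 235, 255 and 242 CPM in HFD peritumoral fat, against 46.0, 49.2, 45.3 and 52.3 CPM in HFD contralateral fat. Every peritumoral library was far above every contralateral one, with a log2 fold change of 2.19 (SE 0.15, adjusted p = 0.000158). Col8a1, a short-chain network collagen of vessel walls, had 21.4, 35.3, 38.4 and 30.9 CPM in HFD peritumoral fat, against 9.77, 9.22, 8.19 and 12.7 CPM in HFD contralateral fat. Here too the groups were apart, with a log2 fold change of 1.65 (SE 0.20, adjusted p = 0.000994). Against Chow peritumoral fat, at 21.5, 10.9, 18.4 and 19.1 CPM, its log2 fold change was 0.77 (SE 0.23, adjusted p = 0.0261), a call lost without Chow peritumoral library 3 or HFD peritumoral library 2 or 3. Col24a1 had 1.51, 3.64, 1.58 and 2.12 CPM in HFD peritumoral fat, against 0.364, 0.247, 0.431 and 0.125 CPM in HFD contralateral fat, with a log2 fold change of 2.88 (SE 0.42, adjusted p = 0.0024). These 3 calls by side held in every alternative fit.

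The type I chains were higher in HFD peritumoral fat at a smaller size. Col1a1 averaged 1452 ± 52 CPM in HFD peritumoral and 996 ± 194 CPM in HFD contralateral fat (SD, n = 4 each), with a log2 fold change of 0.53 (SE 0.14, adjusted p = 0.0209). Col1a2 had a log2 fold change of 0.50 (SE 0.15, adjusted p = 0.0357), and Col3a1 one of 0.54 (SE 0.20, adjusted p = 0.0669). Of the 6 type IV genes and 2 multiplexins, found in or beside basement membranes, Col4a2, Col4a3 and Col15a1 were lower in HFD peritumoral fat. Col4a2 averaged 934 ± 142 CPM in HFD peritumoral and 1323 ± 145 CPM in HFD contralateral fat (SD, n = 4 each), with a log2 fold change of -0.51 (SE 0.14, adjusted p = 0.0238), and Col4a3 and Col15a1 had log2 fold changes of -1 (SE 0.23, adjusted p = 0.0129) and -0.73 (SE 0.23, adjusted p = 0.0378). Col4a1 and Col18a1 were not called, with log2 fold changes of -0.33 and -0.01 (adjusted p = 0.0874 and 0.961). Adipocyte markers were lower in HFD peritumoral fat (7 of 8, median log2 fold change -0.75), macrophage markers higher (7 of 8, 0.85) and cell cycle markers higher (8 of 8, 2.85), and their part in these results was not tested.

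The number of calls in this comparison, of collagens as of all genes, depended on single libraries. It was 4 without HFD peritumoral library 4, beside 18.1% of all genes. It was 5 without HFD contralateral library 2 or 4, beside 18.6% and 19.3%, and 13 without HFD peritumoral library 1, beside 40.4%. The calls of Col1a1 were lost without HFD contralateral library 3 or 4 or HFD peritumoral library 4. Those of Col1a2 were lost without HFD contralateral library 2, 3 or 4 or HFD peritumoral library 3 or 4. Those of Col4a2 were lost without HFD contralateral library 1, 2 or 4 or HFD peritumoral library 4, and those of Col15a1 without any library except HFD contralateral 3 and HFD peritumoral 1.

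On Chow none of 39 tested collagens was called between peritumoral and contralateral fat, beside 0% of the 16057 genes tested with edgeR. At an unadjusted p under 0.05 there were 7 collagens and 1381 genes, and DESeq2 called 1 collagen and 19 genes. With the libraries high in muscle markers left out, edgeR called 0 collagens and 30 genes. That collagen was Col28a1, named after its values were seen, with 7.29, 9.91, 13.2 and 10.9 CPM in Chow peritumoral fat, against 5.01, 4.25, 6.12 and 3.83 CPM in Chow contralateral fat. Its libraries did not overlap, and its log2 fold change with edgeR was 1.12 (SE 0.20, adjusted p = 0.364). Col12a1 had 37.9, 29.3, 81.2 and 108 CPM in Chow peritumoral fat, against 31.1, 25.0, 31.6 and 29.3 CPM in Chow contralateral fat. Libraries 3 and 4 of the Chow peritumoral group were high and libraries 1 and 2 near the contralateral level, and the log2 fold change was 1.15 (SE 0.44, adjusted p = 0.566). Macrophage markers summed to 1659 and 1701 CPM in those libraries 3 and 4, and to 1000.3 and 1396 CPM in libraries 1 and 2, and cell cycle markers to 106 and 209 CPM, and to 41.6 and 53.27 CPM, and their part in this result was not tested.

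Whether the side difference depended on diet was tested as an interaction over 16 libraries. No collagen of 40 tested was called, beside 0% of the 16859 genes tested with edgeR, while 7 collagens and 3349 genes had an unadjusted p under 0.05. Col24a1 had a difference of log2 fold changes of 3 (SE 0.54, adjusted p = 0.0521), Col8a1 one of 1.42 (SE 0.35, adjusted p = 0.0978), Col4a2 one of -0.52 (SE 0.18, adjusted p = 0.146) and Col12a1 one of 1.08 (SE 0.44, adjusted p = 0.205). DESeq2 called Col4a2 and Col8a1, and the fit on all 24 libraries called Col8a1 and Col24a1, beside 4.31% and 1.94% of all genes. Col24a1 is named after its values were seen. Without HFD peritumoral library 1 there were 5 calls, and without Chow peritumoral library 3 there was 1, beside 11.2% and 0.395% of all genes. Leaving out the libraries high in muscle markers gave 0 collagens and 3 genes. The larger changes of Col12a1 and Col8a1 by side on HFD are therefore not shown by this test to differ from those on Chow.

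Contralateral fat was compared with no tumor fat within each diet. It shares the contralateral libraries with the comparisons by side and both groups with those by diet. On Chow 8 of 39 tested collagens were called, 7 higher and 1 lower in contralateral fat, beside 7.95% of the 15946 genes tested (4.93% higher, 3.02% lower). Col10a1 had 5.69, 6.08, 8.44 and 7.47 CPM in Chow contralateral fat, against 3.60, 3.87, 3.52 and 3.27 CPM in Chow no tumor fat. All contralateral libraries were higher, with a log2 fold change of 0.98 (SE 0.15, adjusted p = 0.00824). Col7a1 had 17.1, 9.17, 10.1 and 11.7 CPM in Chow contralateral fat, against 6.70, 4.72, 4.10 and 4.36 CPM in Chow no tumor fat, with a log2 fold change of 1.29 (SE 0.22, adjusted p = 0.0128). Col4a6, Col11a1, Col17a1, Col20a1 and Col27a1 were higher by log2 fold changes of 0.41 to 0.99, and Col5a2 was lower by -0.29 (SE 0.08, adjusted p = 0.0487).

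The number of calls, of collagens as of all genes, depended on single libraries. It was 2 without Chow contralateral library 1, beside 2.35% of all genes, and 5 without Chow contralateral library 4, beside 2.63%. It was 3 without Chow no tumor library 3 or 4, beside 2.33% and 3.51%, and 17 without Chow no tumor library 2, beside 12.3%. Without the libraries high in muscle markers Chow contralateral fat keeps 1 library, so that fit cannot show whether these differences hold. That library, replicate 3, had 79.28 CPM of muscle markers and 8.44 CPM of Col10a1, 10.1 CPM of Col7a1 and 34.4 CPM of Col17a1, against at most 3.87, 6.70 and 25.7 CPM in Chow no tumor fat. These values of 1 library are a description, and the part of muscle RNA in these differences was not tested. With the replicate number as a block 4 collagens were called, Col7a1, Col10a1, Col11a1 and Col20a1, beside 2.23% of all genes. Endothelial, smooth muscle and pericyte, and Schwann cell markers were higher in Chow contralateral fat for 4, 4 and 5 of 8 genes each, and their part in these results was not tested.

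On HFD none of 37 tested collagens was called between contralateral and no tumor fat, beside 6.08% of the 15718 genes tested with edgeR (2.72% higher, 3.37% lower), and 9 collagens and 3633 genes had an unadjusted p under 0.05. DESeq2 called 4, beside 8.22% of all genes. They were Col4a5, Col11a1, Col12a1 and Col17a1, all lower in contralateral fat, and Col4a5 and Col11a1 are named after their values were seen. Col17a1 had 15.6, 23.9, 11.4 and 11.4 CPM in HFD contralateral fat, against 28.6, 22.5, 28.2 and 23.7 CPM in HFD no tumor fat. HFD contralateral library 2 lay within the no tumor range, and the log2 fold change was -0.73 (SE 0.24, adjusted p = 0.114). Col12a1 had a log2 fold change of -0.23 (SE 0.07, adjusted p = 0.0615), with 48.2 ± 3.21 CPM in HFD contralateral and 56.4 ± 4.02 CPM in HFD no tumor fat (SD, n = 4 each). Without HFD contralateral library 4 or 2 there were 3 and 2 calls, beside 7.65% and 4.11% of all genes.

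The difference between contralateral and no tumor fat itself differed by diet for 9 of 39 tested collagens, all in the direction of a lower change on HFD, beside 19.9% of the 16676 genes tested (9.94% lower and 9.94% higher). They were Col10a1, Col11a1, Col17a1, Col4a6, Col6a5, Col4a5, Col7a1, Col8a1 and Col20a1, with differences of log2 fold changes between -1.99 and -0.68. Col10a1 had log2 fold changes of contralateral over no tumor fat that differed by -1.47 (SE 0.23, adjusted p = 0.000765), with means of 2.96 ± 0.582 CPM in HFD contralateral, 4.18 ± 0.495 CPM in HFD no tumor, 6.92 ± 1.27 CPM in Chow contralateral and 3.56 ± 0.249 CPM in Chow no tumor fat (SD, n = 4 each). Col17a1 differed by -1.18 (SE 0.26, adjusted p = 0.00769), with 15.6 ± 5.88, 25.8 ± 3.1, 32.4 ± 4.23 and 23.8 ± 2.12 CPM in the same order of groups. By these means contralateral fat was the lower of its pair on HFD and the higher on Chow in both genes. On HFD alone neither gene was called between the 2 positions. Without the libraries high in muscle markers the difference of Col10a1 was -1.73 (SE 0.29). That fit keeps 1 Chow contralateral library, so it cannot show which of the 9 differences hold. The count of called collagens was 5 without Chow contralateral library 1, Chow no tumor library 3 or HFD no tumor library 3, and 4 without Chow no tumor library 4. Of all genes 15.2% to 16.5% were called in these 4 fits. Mammary epithelium, endothelial, smooth muscle and pericyte, and Schwann cell markers were called in the same direction for 4, 7, 5 and 6 of 8 genes each. Adipocyte and macrophage markers were called in the opposite direction for 5 and 4 of 8 genes. The part of these markers was not tested.

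Genes that fold, modify, secrete and cross-link collagen were followed as a list of 34, of which 33 were tested. On HFD 8 were higher and 3 lower in no tumor fat, 16 higher and 4 lower in contralateral fat, and 18 higher and 1 lower in peritumoral fat, beside the 24.9%, 49.3% and 33.6% of all genes given above. Without the libraries high in muscle markers 7 were higher and 2 lower in no tumor fat, beside 19.6% of all genes. In peritumoral fat 15 were higher and none lower without them, beside 23.4% of all genes. The contralateral fit without them keeps 1 Chow library, and its calls on this list are not counted. Lox, the lysyl oxidase that starts cross-linking, ranged over 161 to 186 CPM in HFD no tumor, 155 to 295 CPM in HFD contralateral and 228 to 432 CPM in HFD peritumoral fat, against 74.6 to 100.2, 57.4 to 91.8 and 77.3 to 172 CPM in the matching Chow groups. No HFD range touched its Chow range, and the log2 fold changes were 0.97 (SE 0.09, adjusted p = 1.09e-05), 1.5 (SE 0.21, adjusted p = 0.000776) and 1.49 (SE 0.28, adjusted p = 0.00451). Pcolce2, an enhancer of procollagen C-terminal cleavage, had log2 fold changes of 1.18, 1.32 and 0.77 (SE 0.09, 0.10 and 0.24). Plod2, the lysyl hydroxylase of the telopeptides, was lower by -1.44 (SE 0.39, adjusted p = 0.0378) in no tumor and -0.68 (SE 0.09, adjusted p = 0.00015) in contralateral fat. Without those libraries the contralateral call of Lox (adjusted p = 0.079) and the no tumor call of Plod2 (adjusted p = 0.0827) were lost.

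In HFD peritumoral against HFD contralateral fat 15 genes of the list were higher and 1 lower, beside 16.8% and 12.7% of all genes. P4ha3, a prolyl hydroxylase subunit, averaged 7.24 ± 2.7 CPM in HFD peritumoral and 1.22 ± 0.209 CPM in HFD contralateral fat (SD, n = 4 each), with a log2 fold change of 2.55 (SE 0.28, adjusted p = 0.000725). P4ha1, another such subunit, and the lysyl oxidase Loxl4 had log2 fold changes of 0.71 (SE 0.10, adjusted p = 0.00206) and 1.62 (SE 0.27, adjusted p = 0.00367). Pcolce2 was the gene lower, by -0.64 (SE 0.18, adjusted p = 0.0266). On Chow none was called by side. In Chow contralateral against Chow no tumor fat 5 were lower and none higher, among them Serpinh1, the collagen chaperone of the endoplasmic reticulum, by -0.46 (SE 0.07, adjusted p = 0.00904), and none was called without the libraries high in muscle markers (Serpinh1, adjusted p = 0.663). None was called between contralateral and no tumor fat on HFD or in the interaction by side, and in the other interaction 6 were higher and 2 lower, beside 19.9% of all genes, and none was called without the libraries high in muscle markers.

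Of 10 collagen receptor genes 9 were tested. On HFD 5 were higher in no tumor fat, 4 higher and 1 lower in contralateral fat, and 3 higher and 2 lower in peritumoral fat. Of all genes 24.9%, 49.3% and 33.6% were called at these positions, so the contralateral share of receptors was near that of all genes. In the fits that leave out the libraries high in muscle markers 3 were higher in no tumor fat, beside 19.6% of all genes. In peritumoral fat 1 was higher and 1 lower, beside 23.4% of all genes. The contralateral fit keeps 1 Chow library, and its receptor calls are not counted. Mrc2, which takes up collagen fragments for degradation, ranged over 80.4 to 95.0, 81.1 to 183 and 66.9 to 103 CPM in HFD no tumor, contralateral and peritumoral fat, against 35.8 to 53.1, 31.7 to 43.0 and 31.3 to 42.1 CPM on Chow. Its log2 fold changes were 0.92 (SE 0.11, adjusted p = 0.000158), 1.61 (SE 0.28, adjusted p = 0.00259) and 1.07 (SE 0.14, adjusted p = 0.000956). Itga1, the alpha subunit of a collagen-binding integrin, was higher on HFD at all 3 positions as well, by 1.12, 0.96 and 0.46 (SE 0.06, 0.16 and 0.14). Without those libraries the contralateral calls of Mrc2 (adjusted p = 0.139) and Itga1 (adjusted p = 0.123) and the peritumoral call of Itga1 (adjusted p = 0.073) were lost. In HFD peritumoral against HFD contralateral fat Lair1, an inhibitory collagen receptor of leukocytes, was higher by 1.34 (SE 0.19, adjusted p = 0.00217), and the collagen-binding kinase receptor Ddr1 was lower by -0.75 (SE 0.14, adjusted p = 0.00567). The remaining comparisons held at most 1 called receptor each.

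Of the 44 collagens, Col9a1, Col19a1, Col22a1 and Col26a1 passed the low-count filter in no comparison, with 129, 88, 42 and 66 counts over all libraries. Col2a1, the main chain of cartilage collagen, with 98 counts in all, was tested in the peritumoral diet comparison and the interaction by side. It had 0.112, 2.40, 0.974 and 0.937 CPM in HFD peritumoral fat, against 0.243, 0, 0.0615 and 0 CPM in HFD contralateral fat, and is named after its values were seen. HFD peritumoral library 1 lay within the contralateral range, and 3 counts correspond to at least 0.168 CPM in that library. Col4a1 and Col4a2 share 22 exon bases on opposite strands and Col9a3 shares 6.07% of its exon bases with Tcfl5, so that their separate counts are uncertain to that extent.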

How the data were processed

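The deposited matrix holds raw gene-level counts made by the authors for 39017 genes in 24 libraries of ribosomal RNA-depleted total RNA. The submitters' processing notes name TopHat, DESeq and mm10 without versions. The counting tool and its use of strand are not given in the sources used here. Totals were 9130125 to 18204747 counts per library.

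Comparisons of 2 groups used the 8 libraries concerned and the 2 interactions used 16, on all genes kept by filterByExpr (minimum count 10, minimum total 15), with edgeR 4.0.16 in R 4.3.3 (TMM factors, robust quasi-likelihood F test, Benjamini-Hochberg threshold 0.05 over all genes tested). The counts were read with the R package data.table, version 1.17.8. SEs are of the log2 fold change, and printed CPM use TMM over 24 libraries. The fits were tested on simulated counts with known changes. Alternatives were DESeq2 1.42.0, RLE factors, no low-count filter, all 24 libraries in 1 fit, the replicate number as a block, and each library left out. Leaving out the libraries over 1000 CPM of skeletal muscle markers was added after seeing the data.

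The collagens and the gene lists were chosen with earlier results of these data known. Named genes were 17 class representatives in every comparison, up to 6 higher and 6 lower called collagens of at least 1 CPM by adjusted p, those called in an interaction, and up to 3 processing and 2 receptor genes per direction. Of 36 replicate pairs none was a duplicate, with median chi-square per gene between 0.93 and 7.41, where sampling noise gives 0.455.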

Additional observations from a re-analysis of the deposited data

Results flagged for a closer look

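In 9 of 180 sets of 4 libraries examined, 1 collagen value stood far from the other 3, about as many as chance gives, which is 1 in 20. They were Col14a1 in HFD contralateral library 4 (124 CPM, low) and Chow peritumoral library 1 (181 CPM, low), Col1a2 in Chow no tumor library 2 (952 CPM, low), Col25a1 in HFD peritumoral library 1 (0.448 CPM, high) and Col28a1 in HFD contralateral library 4 (13 CPM, high). The others were Col4a1 in Chow contralateral library 4 (945 CPM, low), Col4a2 in Chow peritumoral library 3 (772 CPM, high), Col6a5 in Chow no tumor library 2 (1.69 CPM, high) and Col7a1 in HFD no tumor library 1 (9.55 CPM, high).

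The difference of contralateral from no tumor fat differed between the diets, by edgeR's interaction test, for 9 of 39 tested collagens. Their share of 23.1% was near the 19.9% of the 16676 genes tested. On the log2 scale, HFD minus Chow, it was -1.47 for Col10a1, -1.94 for Col11a1, -1.18 for Col17a1, -1.43 for Col4a6, -1.99 for Col6a5, -0.68 for Col4a5, -1.66 for Col7a1, -1.13 for Col8a1 and -0.98 for Col20a1. Leaving out the libraries high in muscle markers keeps 1 Chow contralateral library, so that fit cannot show which of these differences hold.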

How the results depend on the processing

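Over the alternatives, 2568 of 2804 values of named genes stayed called or stayed uncalled, 170 lost the call and 66 gained it. No value called in either fit changed direction, and direction was not compared where neither fit called the gene. By diet, calls of the fits given above were kept in 141 of 154 values in no tumor fat. The counts were 221 of 238 in contralateral and 165 of 196 in peritumoral fat. By side on HFD 85 of 104 were kept, and 64 of 98 for Chow contralateral against no tumor fat. In the distant interaction 142 of 198 were kept. Counts of called collagens moved by more than 1.5 times as follows, with the percent of all genes called in the same fit in brackets. Without the libraries high in muscle markers, HFD against Chow gave 10 in contralateral fat (9 of the 28 kept) and 14 in peritumoral fat, Chow contralateral against no tumor fat 0, and the interaction with a distant tumor 1; these fits have fewer libraries. With all 24 libraries in 1 fit, HFD peritumoral against contralateral fat gave 17 (36.8%) and Chow contralateral against no tumor fat 3 (4.02%). The side interaction gave 2 (1.94%) and the distant interaction 5 (9.05%) in that fit. DESeq2 gave 1 by side on Chow (0.118%), and 13 (9.83%) and 4 (8.22%) for the distant comparisons on Chow and HFD. For the side interaction it gave 2 (4.31%). With no low-count filter the same 4 gave 1 (0.011%), 13 (4.71%), 2 (4.14%) and 1 (0.0244%). The cause was not tested where more genes were called. The labels do not say whether same-numbered libraries share a mouse, and no comparison had every correlation of same-numbered deviations over 0.1 (by side 0 to 0.5 on HFD and 0 to 0.32 on Chow), so the numbers were not used as pairs. With the number as a block, contralateral against no tumor fat gave 4 on Chow (2.23%) and 3 on HFD (4%). The side interaction gave 2 (0.878%), and no other count moved this far.

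With each library left out, counts were 8 to 15 in no tumor, 26 to 29 in contralateral and 14 to 24 in peritumoral fat by diet, 0 to 0 on Chow and 4 to 13 on HFD by side, 2 to 17 on Chow and 0 to 3 on HFD for contralateral against no tumor fat, 0 to 5 for the side interaction and 4 to 12 for the distant one. The peritumoral count by diet was 14 without Chow peritumoral library 1 or 2, beside 19.2% and 23.4% of all genes. The share of all genes called moved in the other comparisons as well. It was 17.3% to 40.4% on HFD by side and 2.33% to 12.3% on Chow for contralateral against no tumor fat. By diet it was 18.6% to 28.5% in no tumor, 43.7% to 47% in contralateral and 19.2% to 37.1% in peritumoral fat. In the distant interaction it was 14.4% to 22.1%. Low counts limit the genes under 1 CPM.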
